A study of Vitis vinifera with 27 samples.

Results

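In latent buds of the grapevine cv. Merlot, 10 genes of 35134 in the count table were chosen for a high expression at anthesis that had dropped by cluster closure and did not drop much further by harvest. The rule used CPM, the reads of a gene for every 1000000 reads counted in its library. A gene was taken when its mean at BBCH63 was 5 CPM or more and at least 4 times its mean at BBCH77, and when its mean at BBCH90 was more than 0.5 times that at BBCH77. All 10 genes had at least 20 reads in each of the 24 libraries that the rule used. The genes were thus chosen by their stage means in these same libraries, and for that reason their fall from BBCH63 to BBCH77 and their level at BBCH90 are described here without a test. Comparisons between nodes within a stage did not enter the rule and were tested, but at BBCH63 and BBCH77 they use the libraries whose means chose the genes, so that their calls are not independent of the choice.

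The latent bud of grapevine forms in the leaf axil during the first of the seasons that it takes to produce an inflorescence. Flowering is decided there long before flowers are seen: the meristem inside the bud turns reproductive in summer, produces branched primordia that can become inflorescences or tendrils, and rests over winter. BBCH63 is the stage of anthesis on the bearing shoot, BBCH77 that of cluster closure and BBCH90 that of harvest. The study chose these stages to cover floral induction, transition and initiation of the bud. From its expression data it placed BBCH90 shortly before dormancy begins.

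All groups were buds of Merlot vines grafted on a single rootstock in a single vineyard, without an experimental treatment. The vineyard had standard plant protection and canopy management, and lateral shoots were pruned repeatedly through the season. They were taken at nodes 2, 5 and 10 of the shoot, counted from its base, at each of the 3 stages, the nodes having medium, low and high fruitfulness, respectively. Each of the 9 groups held 3 biological replicates, and each replicate was a pool of buds from the same node, so that the spread between replicates is that between pools. Each stage was sampled on a single day, and stage and day of sampling cannot be told apart. In such whole buds, fewer cells of a type and less RNA per cell cannot be told apart either.

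The libraries held 34531620 to 53307172 counted reads, with a median of 41275182. Both meristem genes checked were detected at the first stages: VvVFL (Vitvi17g00021), the grapevine LEAFY homologue, had a median of 5.65 CPM at BBCH63 and 8.65 CPM at BBCH77, and VvTFL1A (Vitvi06g01473), which keeps the shoot meristem indeterminate, had 7.26 and 3.87 CPM. At BBCH90 the median of VvVFL was 3.19 CPM and that of VvTFL1A was 0.124 CPM. Replicate 3 of node 10 at each stage was left out, following the study's own choice, and its values are given apart. The BBCH90 library of that number held the same counts as BBCH63 node 2 replicate 2 at all 35134 genes. The BBCH63 library of that number lay below every other BBCH63 library for 7 of the 10 genes. The genes were chosen for high means in those other libraries, and no share over all genes was computed. One of the libraries kept, BBCH77 node 2 replicate 3, was nearer to node 5 than to replicates 1 and 2 of its own node for all 10 genes. On the log2 scale the margin was small in some of them, as in Vitvi15g01388, with distances of 0.565 and 0.618. Nearer did not always mean alike. For Vitvi04g00092, Vitvi08g02374 and Vitvi08g02375 that library lay below every other BBCH77 library of nodes 2 and 5. The distances were not computed over all genes and describe only the 10. Results that rest on this library are given with and without it.

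The RefSeq gene table used here shares no identifier with the count table (0 of 35134 genes matched), so that it could name none of the genes, and none of the 10 was among the 183 gene identifiers in the study's supplementary text. The genes are therefore called by their identifiers, the digits before the letter g giving the chromosome, and no function is given to any of them. They were spread over 9 chromosomes, and the only pair on 1 chromosome, Vitvi08g02374 and Vitvi08g02375, has consecutive identifiers.

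Genes with this course were few. Of 15126 genes with a BBCH63 mean of at least 5 CPM, 31 (0.205%) were at least 4 times higher at BBCH63 than at BBCH77, whereas 178 of the 15396 genes with a BBCH77 mean of at least 5 CPM were at least 4 times higher at BBCH77. Among the 31 genes the median BBCH90 mean was 12.4% of the BBCH77 mean, and 21 of them fell to 0.5 times or less. The other 10 are the genes described here. Their BBCH63 means were 4.14 to 7.02 times their BBCH77 means, with a median of 4.68.

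The 10 genes did not share 1 course after BBCH77. For 6 of them, Vitvi08g02374, Vitvi18g01669, Vitvi12g02394, Vitvi15g01388, Vitvi01g01958 and Vitvi14g04043, the BBCH90 mean was 0.596 to 1.89 times the BBCH77 mean, and these are called steady here, with a limit of 2. For the other 4, Vitvi08g02375, Vitvi02g00025, Vitvi04g00092 and Vitvi07g00457, it was 2.35 to 34.3 times the BBCH77 mean. The pair on chromosome 8 lay near that limit: the ratio of Vitvi08g02374 was 1.23 without BBCH90 node 2 replicate 2 and reached 2.14 without BBCH77 node 10 replicate 1, and that of Vitvi08g02375 was 1.94 without BBCH90 node 10 replicate 1. In Vitvi04g00092 and Vitvi07g00457 the BBCH90 mean passed that of BBCH63, so that neither gene was highest at BBCH63.

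**Figure D1:**
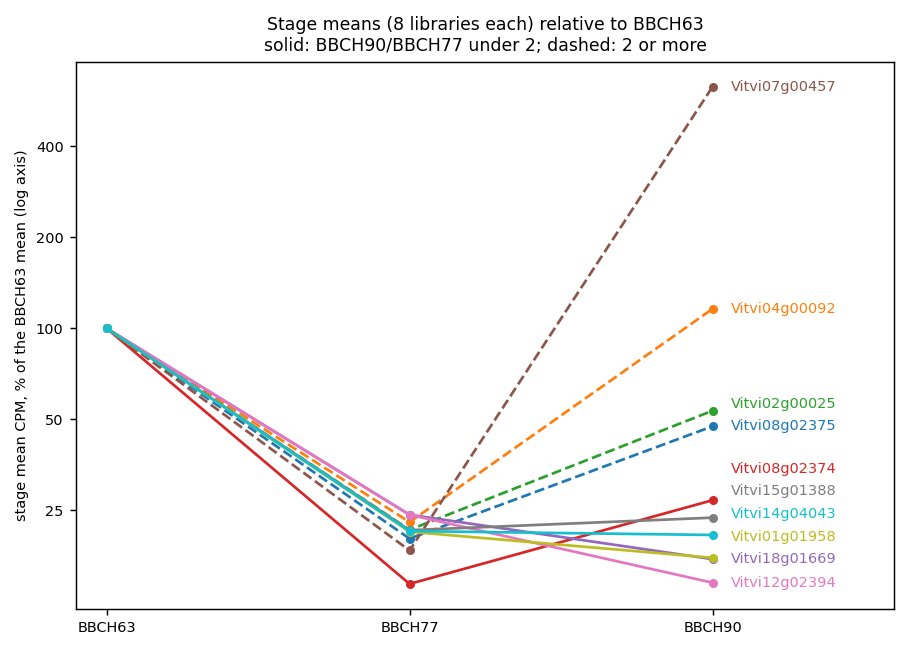
Mean CPM of each gene at BBCH63, BBCH77 and BBCH90 as a percentage of its BBCH63 mean, on a log axis, with 8 libraries per stage and lines joining the means. Solid lines are the 6 genes whose BBCH90/BBCH77 ratio was under 2 and dashed lines the 4 genes at or above 2, and Vitvi07g00457 ends at 631% and Vitvi04g00092 at 116%.

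In 7 of the 10 genes all 8 BBCH63 libraries lay above all 8 BBCH77 libraries, against 3.46% of all genes with a BBCH63 mean of at least 5 CPM, a contrast that the rule itself used. The exceptions were Vitvi04g00092, Vitvi12g02394 and Vitvi01g01958, in which the lowest BBCH63 library was at or below the highest BBCH77 library. The BBCH77 and BBCH90 libraries lay apart in only Vitvi04g00092 and Vitvi07g00457. Of all genes with a BBCH63 mean of at least 5 CPM, 42.1% had such libraries apart. The rule left out genes that fell far from BBCH77 to BBCH90. This difference is therefore partly fixed by the choice and is no result about the genes. The 4-fold difference was met in each of the 3 nodes by Vitvi15g01388 alone, and the other 9 genes met it in 2 nodes.

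**Figure D2:**
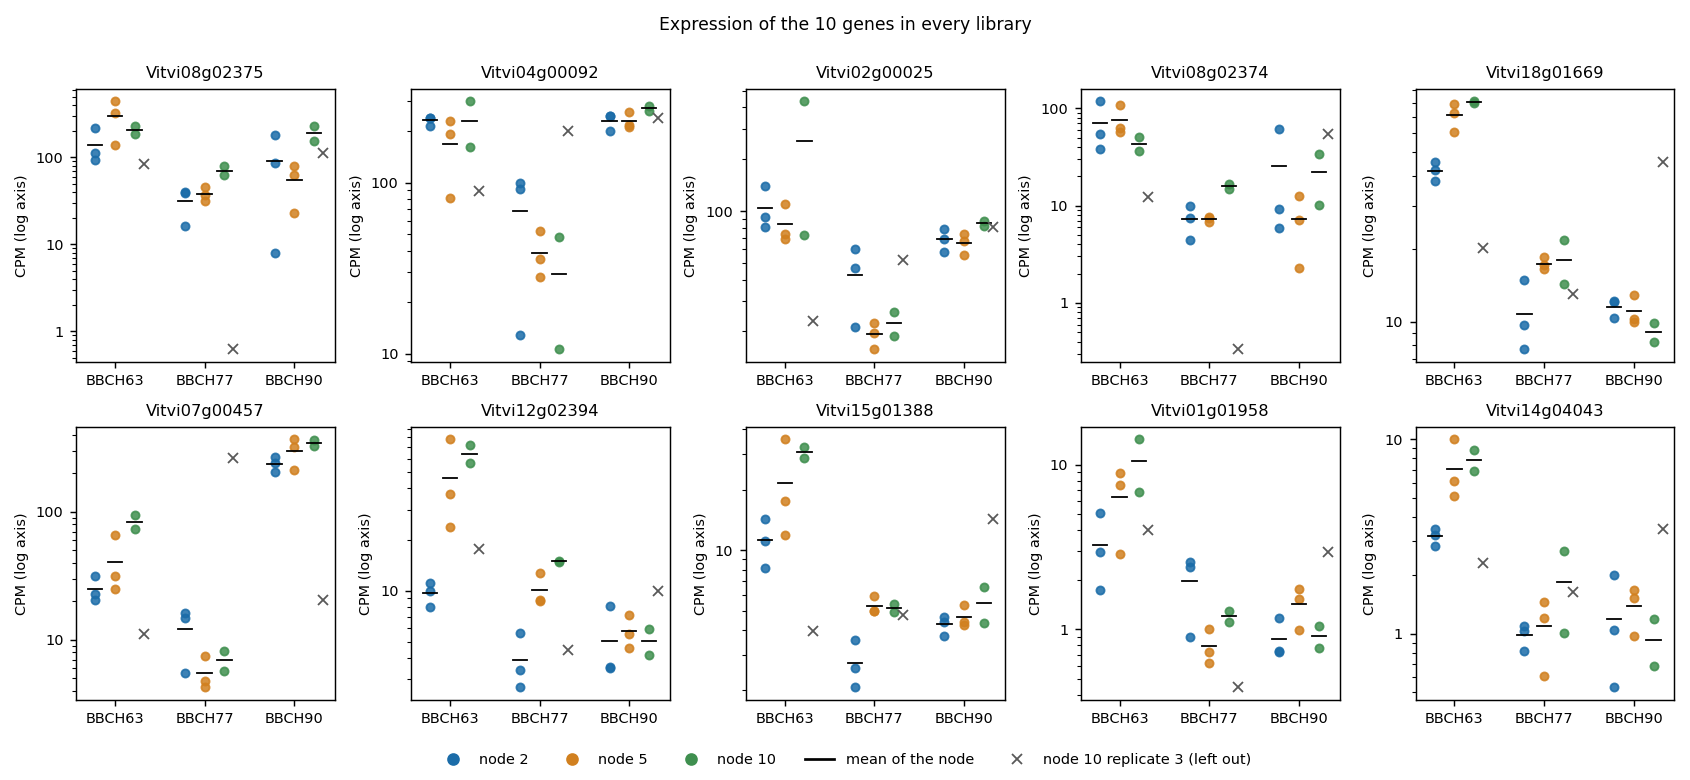
CPM of the 10 genes in every library on log axes, by stage and by node (blue, node 2; orange, node 5; green, node 10), with black bars for the mean of each node and crosses for the libraries left out. The BBCH63 mean is the highest of the 3 stages in 8 of the genes, while Vitvi07g00457 and Vitvi04g00092 have their highest means at BBCH90, and node 2 is lowest at BBCH63 in 7 genes.

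Vitvi07g00457 had the strongest return. At BBCH63 its 3 libraries of node 2 had 31.3, 20.3 and 22.8 CPM. Those of node 5 had 31.6, 66.2 and 24.7 CPM, and those of node 10 had 72.9 and 94.8 CPM. At BBCH77 the same nodes had 16.3, 14.8 and 5.48 CPM, then 4.81, 7.43 and 4.26 CPM, then 8.22 and 5.71 CPM. All 8 libraries of BBCH77 were thus below all 8 of BBCH63. At BBCH90 the lowest library had 204 CPM, the median was 294 CPM and the highest 368 CPM. The stage means were 45.6 ± 28.2, 8.38 ± 4.63 and 288 ± 64.97 CPM (SD, n = 8), the BBCH90 mean being 631% of that at BBCH63.

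Vitvi04g00092 returned to its earlier level. Its means were 207 ± 64.5 CPM at BBCH63, 47.3 ± 33.3 CPM at BBCH77 and 240 ± 28.3 CPM at BBCH90 (SD, n = 8). At BBCH63 the libraries of node 2 had 240.2, 239.9 and 214 CPM, those of node 5 had 194 and 228 CPM and, in replicate 3, 81.8 CPM, and those of node 10 had 161 and 299 CPM. The BBCH77 libraries were the most uneven, with 100.04, 91.3 and 12.8 CPM at node 2, 35.6, 51.9 and 28.1 CPM at node 5, and 10.6 and 47.8 CPM at node 10. Replicates 1 and 2 of node 2 stood above all other BBCH77 libraries of the 24, and replicate 3 of the same node was the second lowest. At BBCH90 the 8 libraries covered 201 to 282 CPM and lay above every BBCH77 library.

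Vitvi02g00025 met the rule through 1 library. At BBCH63 the libraries of node 2 had 139, 80.4 and 91.9 CPM and those of node 5 had 73.8, 109 and 69.1 CPM, while the libraries of node 10 had 72.8 and 435 CPM. The last value was 5.05 times the median of the stage, and without that library the ratio of BBCH63 to BBCH77 was 3.16 in place of 4.65, under the limit of the rule. At BBCH77 replicates 1 and 2 of node 2 had 60.0 and 47.0 CPM, and replicate 3 had 21.1 CPM. The libraries of nodes 5 and 10 had 15.7 to 26.0 CPM. At BBCH77 the mean of node 2 was thus the highest of the nodes, which it was not at BBCH63. At BBCH90 the libraries came closer together, with 55.6 to 88.0 CPM and a mean of 71.4 ± 11.4 CPM (SD, n = 8).

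Vitvi08g02375 had the highest BBCH63 mean of the 10 genes in CPM, at 217 ± 116 CPM (SD, n = 8), though CPM does not correct for gene length and levels of different genes are not compared. At BBCH63 the libraries of node 2 had 216, 112 and 92.3 CPM. Those of node 5 had 140, 441 and 320 CPM, and those of node 10 had 229 and 186 CPM. The BBCH77 libraries covered 16.3 to 78.8 CPM, with both libraries of node 10 on top, and none reached the lowest BBCH63 library. At BBCH90 the replicates of a node were far apart, with 7.88, 181 and 85.5 CPM at node 2, 22.8, 63.3 and 79.0 CPM at node 5, and 231 and 152 CPM at node 10. The BBCH90 mean of 103 ± 78.2 CPM, 2.35 times that of BBCH77, therefore stands for libraries that overlapped those of BBCH77.

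Vitvi08g02374, the gene with the next lower identifier, had the largest fall of the 10, from 65.9 ± 30.9 CPM at BBCH63 to 9.39 ± 4.26 CPM at BBCH77 (SD, n = 8), a ratio of 7.02. Its BBCH63 libraries had 118, 54.4 and 38.3 CPM at node 2, 57.2, 109 and 63.4 CPM at node 5, and 50.3 and 36.6 CPM at node 10. At BBCH90 it had 2.27 to 61.1 CPM, with a mean of 17.8 ± 19.99 CPM, and a single library, node 2 replicate 2, gave the highest value. That library was also the highest of node 2 for Vitvi08g02375 at this stage.

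The reads of this pair did not keep a constant proportion. For every 100 reads of Vitvi08g02375 there were 19.7 to 54.7 reads of Vitvi08g02374 at BBCH63, with a median of 32.8, and 16.8 to 27.2 reads at BBCH77, with a median of 20.8. At BBCH90 the proportion ran from 4.40 to 117 reads, with a median of 14.9. Whether the genes overlap or share reads was not tested, since neither coordinates nor sequences of them were used here, and their separate values are uncertain to that extent.

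Vitvi18g01669 had the closest replicates. At BBCH63 the libraries of node 2 had 38.0, 45.5 and 42.1 CPM, those of node 5 had 60.7, 79.1 and 72.6 CPM, and those of node 10 had 81.1 and 80.1 CPM. Node 2 lay below nodes 5 and 10 in every library. At BBCH77 the libraries had 7.70, 9.74 and 14.9 CPM at node 2, 17.2, 16.4 and 18.4 CPM at node 5, and 14.3 and 21.8 CPM at node 10, and at BBCH90 all 8 had 8.26 to 12.8 CPM. The stage means were 62.4 ± 18.3, 15.1 ± 4.56 and 10.7 ± 1.52 CPM (SD, n = 8), and the ratio of 4.14 was among the closest to the limit.

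Vitvi12g02394 differed most between nodes. At BBCH63 its libraries of node 2 had 8.05, 9.92 and 11.1 CPM, whereas node 5 had 23.7, 37.3 and 78.0 CPM and node 10 had 56.5 and 71.8 CPM. The groups of nodes 5 and 10 did not reach down to node 2. At BBCH77 the order was the same, with 2.69, 3.42 and 5.63 CPM at node 2, 12.7, 8.66 and 8.80 CPM at node 5, and 14.7 and 14.97 CPM at node 10. At BBCH90 the nodes had merged, all 8 libraries lying between 3.50 and 8.16 CPM. The values of nodes 5 and 10 at BBCH77 overlapped those of node 2 at BBCH63, and the stage means were 37.1 ± 28.5, 8.94 ± 4.85 and 5.33 ± 1.70 CPM (SD, n = 8).

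At BBCH63 Vitvi15g01388 had 8.15, 14.3 and 11.0 CPM at node 2. It had 11.9, 17.5 and 35.7 CPM at node 5, and 28.6 and 32.7 CPM at node 10. At BBCH77 it had 2.07 to 5.88 CPM, below the lowest BBCH63 library, and at BBCH90 3.74 to 6.58 CPM. Its means were 4.29 ± 1.38 CPM at BBCH77 and 4.72 ± 0.875 CPM at BBCH90 (SD, n = 8). It was thus a steady gene after its fall from 19.99 ± 10.7 CPM.

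Vitvi01g01958 and Vitvi14g04043 were just above the limit of 5 CPM. Vitvi01g01958 had 1.73, 2.97 and 5.09 CPM at node 2, 7.52, 8.88 and 2.87 CPM at node 5, and 14.3 and 6.84 CPM at node 10 at BBCH63. At BBCH77 replicates 1 and 2 of node 2 had 2.57 and 2.40 CPM and the other 6 libraries 0.628 to 1.29 CPM, so that node 2, the lowest node at BBCH63, held the highest libraries at BBCH77. Vitvi14g04043 had 2.84 to 3.47 CPM at node 2 at BBCH63, 5.09, 6.11 and 10.02 CPM at node 5, and 6.91 and 8.83 CPM at node 10, with node 2 again below the others. At BBCH77 it had 0.605 to 2.68 CPM and at BBCH90 0.530 to 2.01 CPM. Their BBCH90 means of 1.09 ± 0.377 and 1.20 ± 0.506 CPM (SD, n = 8) were 0.820 and 0.971 times those of BBCH77.

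The limits of the rule passed close to some of these genes. Inside the 4-fold limit, Vitvi18g01669 and Vitvi12g02394 had ratios of 4.14 and Vitvi04g00092 had 4.38, and the first genes outside it, Vitvi12g00153, Vitvi03g01649 and Vitvi11g00724, had 3.997, 3.90 and 3.80. At the lower limit of the BBCH90/BBCH77 ratio, Vitvi12g02394 had 0.596 and the nearest gene outside, Vitvi12g01984, had 0.430. At the limit on expression, Vitvi14g04043 had 5.81 CPM and the nearest gene outside that met both ratios, Vitvi18g02816, had 2.05 CPM. When each library was left out in turn, Vitvi12g02394 missed the rule in 6 cases, Vitvi18g01669 in 5, Vitvi04g00092 in 2 and Vitvi02g00025 and Vitvi01g01958 in 1 each, and the other 5 genes met it in all cases.

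Differences between nodes were tested in edgeR over 22999 genes, among them all 10 genes, and a gene was called a DEG when its adjusted p was under 0.05 and its change at least 2-fold. A gene that is high at only 1 or 2 nodes at BBCH63 can meet the rule through those nodes. At BBCH63 and BBCH77 the number of calls among the 10 genes is therefore a description and no result about them. As a description only, the BBCH63 mean was lowest at node 2 in 7 of the 10 genes, against 61.8% of all genes with a BBCH63 mean of at least 5 CPM, and highest at node 10 in 7, against 32.3%. Vitvi04g00092 was highest at node 2, and Vitvi08g02374 and Vitvi08g02375 were highest at node 5.

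In buds at node 5 vs node 2 at BBCH63, 1 of the 10 genes was a DEG, where 4.82% of all genes tested were (1.7% higher and 3.12% lower at node 5). This was Vitvi12g02394, higher at node 5 by 2.08 ± 0.39 on the log2 scale (SE; edgeR adjusted p = 0.00376). Vitvi18g01669 passed the adjusted p with a smaller difference of 0.57 ± 0.16 (SE; edgeR adjusted p = 0.0303), short of a 2-fold change. The median log2 fold change of the 10 genes was 0.68 and that of all genes tested 0.03, a difference that is no result about the genes, since they were chosen for high BBCH63 means. Without BBCH63 node 5 replicate 1, Vitvi15g01388 was called as well, at 1.08 (edgeR adjusted p = 0.0203). DESeq2 called Vitvi12g02394 alone of the 10, with 1386 of 29225 genes called (4.74%), where edgeR called 1109 of 22999.

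In buds at node 10 vs node 2 at BBCH63, 3 of the 10 genes were upregulated and none was downregulated. Of all genes tested 4.61% were DEGs, 1.62% being upregulated and 2.99% downregulated. The count among the 10 is no result about them. Vitvi12g02394 and Vitvi07g00457 met the 4-fold limit only through nodes 5 and 10, their ratios at node 2 being 2.48 and 2.03. Vitvi12g02394 was higher at node 10 by 2.59 ± 0.42 (SE; edgeR adjusted p = 0.00214), Vitvi07g00457 by 1.61 ± 0.44 (adjusted p = 0.0299 in edgeR) and Vitvi15g01388 by 1.33 ± 0.32 (adjusted p = 0.0157 in edgeR), all on the log2 scale. Vitvi18g01669 was higher by 0.81 ± 0.18 (SE; edgeR adjusted p = 0.0101), short of a 2-fold change, and Vitvi01g01958 by 1.57 ± 0.50 missed the adjusted p at 0.0544 in edgeR. The medians were 1.16 for the 10 genes and 0.01 for all genes tested, with the same limit. The call of Vitvi12g02394 held without each library in turn. That of Vitvi07g00457 was lost without node 2 replicate 2 or 3 or without either library of node 10 (edgeR adjusted p of 0.0774 to 0.201), and that of Vitvi15g01388 without node 2 replicate 1 or either library of node 10 (edgeR adjusted p of 0.0689 to 0.127). Without node 2 replicate 3, Vitvi01g01958 was called, at 2.02 (edgeR adjusted p = 0.0352), and DESeq2 called it in the 24 libraries beside the other 3 genes, with 5.06% of all genes called.

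**Figure D3:**
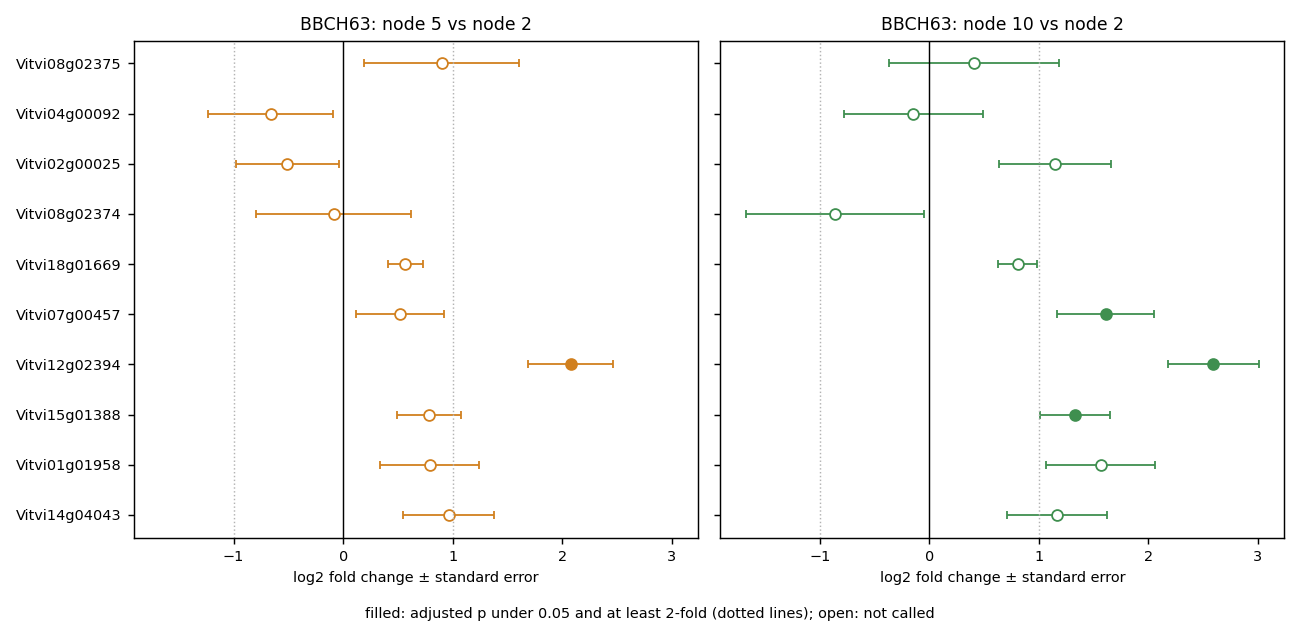
Log2 fold change with its standard error for each of the 10 genes at BBCH63, node 5 vs node 2 (orange) and node 10 vs node 2 (green), with dotted lines at a 2-fold change. Filled points are DEGs, Vitvi12g02394 in both panels and Vitvi07g00457 and Vitvi15g01388 only in the panel of node 10, and open points were not called.

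Between buds at node 10 and node 5 at BBCH63 no gene of the 22999 was a DEG in edgeR, and thus none of the 10 (0% of all genes tested). At an unadjusted p under 0.05 there were 2 of the 10, Vitvi02g00025 and Vitvi07g00457, and DESeq2 called none of the 10. Over all genes, 2479 had an unadjusted p under 0.05 in edgeR, and DESeq2 called 105 (0.359%).

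At BBCH77 the genes moved in both directions along the shoot. In buds at node 5 vs node 2, 2 of the 10 genes were downregulated, where 4.89% of all genes tested were DEGs, 1.19% being upregulated and 3.7% downregulated. Vitvi07g00457 was lower at node 5, with a log2 fold change of -1.43 ± 0.42 (SE; edgeR adjusted p = 0.0341), and so was Vitvi01g01958, with -1.58 ± 0.49 (SE; edgeR adjusted p = 0.0425). In buds at node 10 vs node 2, 1 of the 10 genes was upregulated, where 1.6% of all genes tested were DEGs, 0.261% being upregulated and 1.33% downregulated. This was again Vitvi12g02394, by 1.77 ± 0.42 on the log2 scale (SE; edgeR adjusted p = 0.0404). DESeq2 called 4 of the 10 in node 5 vs node 2, adding Vitvi02g00025 at -1.45 and Vitvi12g02394 at 1.15 (4.52% of all genes called), and Vitvi12g02394 alone of the 10 for node 10 against node 2 (2.92%). Medians over the 10 genes were -0.17 for node 5 and 0.63 for node 10, against 0.02 over all genes tested in both comparisons. The rule used the BBCH77 means too, so that this difference is no result about the genes.

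The BBCH77 calls changed when single libraries were left out, while the fold changes of the 3 genes called kept their direction. Without node 2 replicate 1 or 2, or without node 5 replicate 1 or 3, both genes lost their call in node 5 vs node 2, with edgeR adjusted p of 0.105 to 0.240 for Vitvi07g00457 and 0.108 to 0.257 for Vitvi01g01958, and without node 5 replicate 2 Vitvi01g01958 had 0.0585. The log2 fold changes in these fits were -1.33 to -1.07 for Vitvi07g00457 and -1.79 to -1.24 for Vitvi01g01958, and 194 to 951 genes of all those tested were called in place of 1124. Vitvi12g02394 lost its call in node 10 vs node 2 without node 2 replicate 1 or 2 or either library of node 10 (edgeR adjusted p of 0.136 to 0.298), although its log2 fold change stayed at 1.62 to 1.82, and in these fits 0 to 36 genes of all those tested were called in place of 367. Without node 2 replicate 3, which in the 10 genes lay nearer to node 5 than to its own node, the calls were more. In node 5 vs node 2 they were 5 of the 10, where 12.1% of all genes tested were then DEGs: Vitvi01g01958 at -1.97, Vitvi07g00457 at -1.82, Vitvi02g00025 at -1.80, Vitvi04g00092 at -1.63 and Vitvi12g02394 at 1.41. In node 10 vs node 2 they were 4 of the 10, where 10.5% were: Vitvi04g00092 at -2.02, Vitvi02g00025 at -1.53, Vitvi07g00457 at -1.42 and Vitvi12g02394 at 2.02. The 4 genes with negative values are those in which replicates 1 and 2 of node 2 stood above all other BBCH77 libraries of the 24. The part of that library in these results was measured only by leaving it out, and what sets it apart was not tested.

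**Figure D4:**
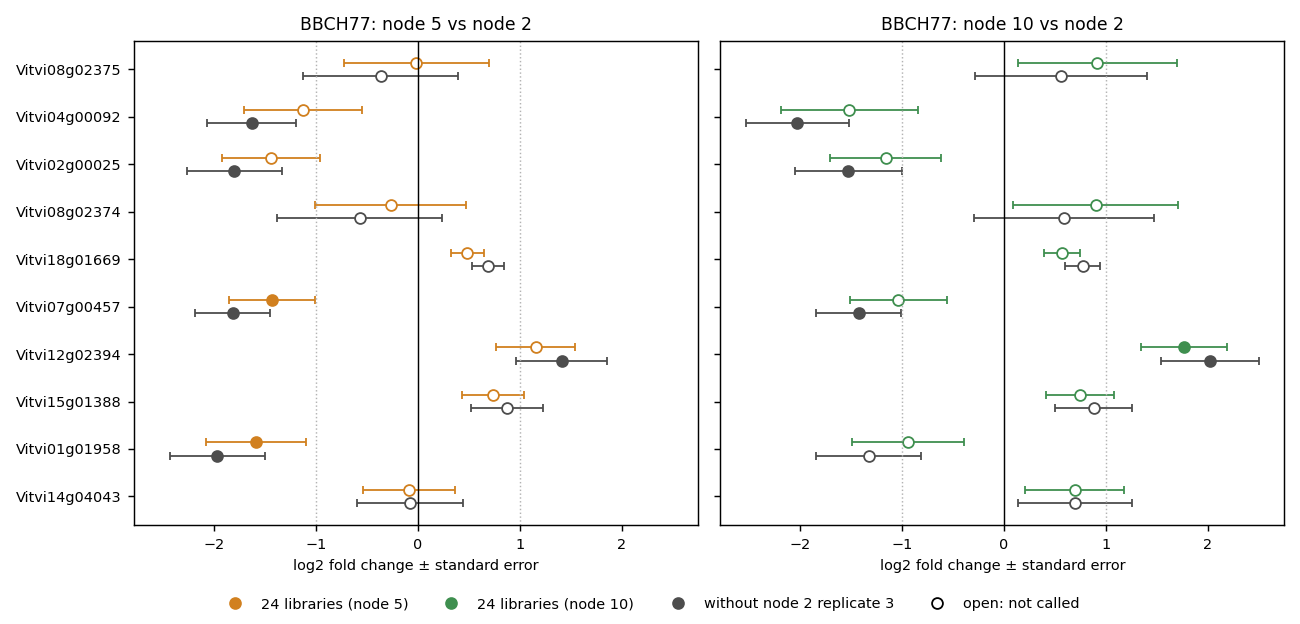
Log2 fold change with its standard error for each of the 10 genes at BBCH77, node 5 vs node 2 (left) and node 10 vs node 2 (right), from the 24 libraries (coloured points) and without node 2 replicate 3 (grey points), with dotted lines at a 2-fold change. Filled points are DEGs, 2 of the 10 on the left and 1 on the right in the 24 libraries, and 5 and 4 of the 10 without that replicate.

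Between buds at node 10 and node 5 at BBCH77 no gene was a DEG in edgeR (0% of all genes tested), although 785 genes had an unadjusted p under 0.05 and DESeq2 called 1 gene (0.00342%). None of the 10 was among either. At BBCH90 none of the 10 genes, and no other gene tested, differed between any nodes in edgeR (0% in each of the 3 comparisons). Unadjusted p values under 0.05 were found for Vitvi08g02374 alone of the 10 in node 5 vs node 2, for none against node 2 at node 10 and for Vitvi08g02375 alone between nodes 10 and 5, and DESeq2 called none of the 10 in each. Over all genes these comparisons gave 1812, 2185 and 2088 unadjusted p values under 0.05 in edgeR and 178, 131 and 153 calls in DESeq2 (0.609%, 0.448% and 0.524%), respectively. For Vitvi12g02394 the log2 fold change of node 5 vs node 2, 2.08 at BBCH63, was 0.20 ± 0.39 (SE) at BBCH90.

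The ratio of BBCH63 to BBCH77, the value that the rule used, differed between nodes within the 10 genes, and is given as a description. In Vitvi07g00457 it was 2.03 at node 2, 7.42 at node 5 and 12.03 at node 10, and in Vitvi01g01958 it was 1.66, 8.15 and 8.80. These genes, like Vitvi02g00025 with 2.43, 4.38 and 11.3 and Vitvi12g02394 with 2.48, 4.61 and 4.32, met the 4-fold limit through nodes 5 and 10. Vitvi08g02375 and Vitvi08g02374 met it through nodes 2 and 5, with 2.95 and 2.75 at node 10. The interaction of node and stage, fitted over all genes, rests on the same values and is not independent of the choice. A call among the 10 genes is therefore no result about them, and the counts are given only as a description. In edgeR it called none of the 10 genes for node 5 against node 2, where 0.013% of all genes tested were called, nor for node 10 against node 2, where 0.0174% were. An unadjusted p under 0.05 was found for 2 of the 10 and for 2377 of the 22999 genes at node 5, and for 3 of the 10 and 2833 genes at node 10. DESeq2 called Vitvi07g00457 and Vitvi01g01958 at both nodes, with 0.506% and 0.879% of all genes called, and so did edgeR without BBCH77 node 2 replicate 3, which added Vitvi02g00025 at node 10, with 2.17% and 3.39%. The change from BBCH77 to BBCH90 was not compared between nodes.

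The scaling of libraries moved the comparisons with node 2 by a small amount. TMM normalization lowered the log2 fold changes relative to plain CPM by 0.19 for node 5 and 0.14 for node 10 at BBCH63, and by 0.23 and 0.19 at BBCH77, so that the fold changes above are relative to that shift.

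The libraries left out took no part in the choice of the genes, which favoured high values in the BBCH63 libraries used and low ones at BBCH77. Nearness to a stage was not computed over all genes, so that these counts are no check of the labels. In BBCH63 node 10 replicate 3 the values were nearest to the BBCH77 mean for 8 of the 10 genes. In BBCH77 node 10 replicate 3, 5 of the 10 genes lay within the range of the other BBCH77 libraries, 4 being nearest to the BBCH77 mean and 5 to that of BBCH90. In this library Vitvi07g00457 had 263 CPM and Vitvi04g00092 had 201 CPM, nearer to BBCH90 than to BBCH77, while Vitvi08g02375 and Vitvi08g02374 had 0.622 and 0.333 CPM from 28 and 15 reads. With all 27 libraries, 17 genes met the rule, 6 of them among the 10. None of the 10 was then a DEG between nodes at BBCH63 or BBCH77. Of all genes tested, 0.386% (node 5 vs node 2) and 0.0176% (node 10 against node 2) were at BBCH63, and none at BBCH77. The 27 include the BBCH90 library with the counts of BBCH63 node 2 replicate 2. All groups of a fit share 1 dispersion estimate per gene, and its part in the lost calls was not tested.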

How the data were processed

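RNA-Seq of latent buds was analysed from a table of raw counts. The deposited counts, whole and not normalized, were made by the authors for every gene from reads mapped to the PN40024.v4 genome. FastQC, HISAT2 and HTSeq are named in the submitters' processing notes. Whether the counting used strand is not given in the sources used here. The 10 genes, the comparisons and the gene lists were chosen with earlier results of these data known. With 10 genes, the rule for naming single genes (the highest, the called, those next to the limits and those with the largest return) named all of them. Gene lists set by keyword could not be applied without an annotation.

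CPM used the column totals. Between nodes, counts of the 24 libraries used by the study were fitted in edgeR 4.0.16 under R 4.3.3 with 1 mean for each of the 9 groups, after filterByExpr with a minimum count of 10 and TMM normalization. The quasi-likelihood test was used, with Benjamini-Hochberg adjustment over all 22999 genes tested. The study used DESeq2 for its DEGs, which was run here as an alternative (1.42.0). It was run without the filter on low counts. Its shares are over 29225 genes with a p value, so they are not on the same base as those of edgeR. Standard errors were derived from the size of the log2 fold change and the F value of its test (their quotient, F taken as its square root), not estimated directly. The fit was tested on simulated data. Alternatives were another scaling, no filter, all 27 libraries, a replicate block, only the groups compared, stricter limits, changed limits of the rule and each library left out. Tables were made in Python 3.11.15 with pandas 2.3.3.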

Additional observations from a re-analysis of the deposited data

Results flagged for a closer look

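Each of the 10 genes was checked for a library far from the others of its stage, in 30 groups of 8 libraries. A gap above 0.526 of the range was flagged. This limit gives about 1 case in 20 groups if all libraries of a group come from 1 normal distribution. The groups pooled 3 nodes in CPM, so that the rate may not hold here. Vitvi02g00025 had 435 CPM in BBCH63 node 10 replicate 2, the next library having 139 CPM, a gap of 0.808 of the range of the stage. Vitvi14g04043 had 2.68 CPM in BBCH77 node 10 replicate 2, the next library having 1.46 CPM, a gap of 0.585 of the range. In BBCH77 node 10 replicate 3, which was left out, Vitvi07g00457 had 263 CPM and Vitvi04g00092 201 CPM, above the highest BBCH77 libraries of the 24 with 16.3 and 100.04 CPM.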

How the results depend on the processing

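The number of genes that met the rule was 17 with all 27 libraries, 19 with medians in place of means, 35 with a 3-fold limit, 2 with a 5-fold limit and 6 with an upper limit of 2 on the BBCH90/BBCH77 ratio. Of the 10 genes, 6 were among the 17 and 7 among the 19. Without node 2, an alternative chosen after seeing the data, 30 genes met it, 9 of them shared. Leaving out each library in turn gave 9 to 14.

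All 27 libraries include the one with duplicated counts. With them, none of the 10 genes was called in node 5 vs node 2 or node 10 vs node 2 at BBCH63 or BBCH77 (0 in each). In that fit 3 log2 values changed sign. Node 10 vs node 2 at BBCH77 was 2.90 for Vitvi07g00457 and 0.26 for Vitvi04g00092, and the interaction of node 10 for Vitvi07g00457 was 1.79. With an adjusted p limit of 0.01, 1 of the 10 was called in node 10 vs node 2 at BBCH63 (340 of all genes) and 0 at BBCH77 in node 5 (381) and node 10 (1) vs node 2. With only the groups compared in the fit, the last 2 were 0, as for all genes, and node 10 vs node 2 at BBCH63 had 4. DESeq2 called 4 of the 10 in node 5 vs node 2 at BBCH77 and 2 in each interaction. With each library left out, the calls were 1 to 2 and 1 to 3 for nodes 5 and 10 vs node 2 at BBCH63, 0 to 5 and 0 to 4 at BBCH77, and 0 to 2 and 0 to 3 for the interactions. Where this left 1 library at node 10, that library was assumed to vary like the others.

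Whether replicates of the same number pair was not settled. Their deviations correlated by -0.17 to 0.45, above 0.1 in 6 of 21 pairs, and replicates of different numbers were not compared. The highest values were those of nodes 2 and 5 at BBCH90, with 0.45 for replicate 1 and 0.33 for replicate 3. With the replicate block in the model, 1 and 3 of the 10 genes were called at BBCH63 and 2 and 1 at BBCH77 for nodes 5 and 10 vs node 2. In node 5 vs node 2 at BBCH77 the block lost Vitvi01g01958 (edgeR adjusted p = 0.0534) and gained Vitvi12g02394 (edgeR adjusted p = 0.0126), and it changed no other of these calls. Over all genes, calls at BBCH63 rose from 1109 to 1306 for node 5 and from 1060 to 1639 for node 10 vs node 2. At BBCH77 they rose from 1124 to 1235 and from 367 to 944. Alternatives were counted for pairs of gene and comparison with an edgeR adjusted p under 0.05 in the 24 libraries. Pairs called without BBCH77 node 2 replicate 3 were counted too, which builds in some gains. No pair of Vitvi08g02374, Vitvi08g02375 or Vitvi14g04043 was among them. Over these pairs 219 alternatives kept direction and side of the threshold, 18 gained it, 36 lost it and 3 reversed. The effect of depth was not tested. The 10 genes had 20 reads or more in each of the 24 libraries, the lowest counts being 20 in Vitvi14g04043 and 25 in Vitvi01g01958.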
